A study of Mus musculus with 4 samples.

Results

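The Egr genes (Egr1, Egr2, Egr3 and Egr4) and Srf were followed in brain RNA of tau+/+ and tau-/- mice given vehicle or pentylenetetrazole (PTZ), which blocks GABA-A receptors and so triggers seizures. These 5 genes were taken by name from the 230 genes that the study labeled as lacking a response in tau-/- mice, and all 5 were found, each with a value in all 4 libraries. There was 1 library for each condition, all from C57Bl/6 mice at 6 weeks of age: Tau +/+ with the treatment label sham, Tau +/+ with PTZ, Tau -/- with sham, and Tau -/- with PTZ at 50 mg/kg intraperitoneally. The sham libraries are called vehicle here, as in the methods of the study, and RNA was collected 1 h after the injection. The sequenced PTZ mice had been matched for seizure score, and the number of mice per library is not given in the sources used here. By the methods of the study, the tau-/- line carries a GFP cDNA inserted in an exon of Mapt, the gene that encodes tau, and so lacks tau, while no Cre or other transgene is named for any group. Mapt is not analysed here, so the genotypes rest on the labels. The labels give brain as the source but also mention primary neurons, and the libraries are treated as brain.

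Levels are FPKM (fragments scaled to transcript length and library size) and can therefore be compared between genes. With 1 library per condition there are no replicates, so no difference is given an error, an SD or a test here. FPKM values do not give the depth of a library. The study's rule for the 230 genes asked for a change of over 1.5-fold that passed its p-value threshold between the tau+/+ libraries. In tau-/- it asked for no such change, or for a significantly milder one in that direction. The fold in FPKM was not smaller in tau-/- for every listed gene: 6 changed further in tau-/- than in tau+/+ in the same direction. The tau+/+ rise of the Egr genes and Srf and their response in tau-/- were both used by this rule and are given as a description.

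Egr1 to Egr4 are immediate early genes, which neurons transcribe within minutes of strong activity without first making new protein. They encode zinc finger transcription factors that bind a GC-rich site, and in brain they are used as markers of recently active neurons and are tied to synaptic plasticity. Srf encodes serum response factor, which binds a short A/T-rich sequence called the CArG box. It acts with ternary complex factors of the ETS family, which ERK phosphorylates, or with actin-regulated cofactors, and several Egr genes and Srf itself are among its known targets. CREB, which binds the CRE, is the other main route from calcium entry to these genes.

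RefSeq promoter windows on GRCm38.p6 were searched for exact matches to short binding sequences. Each ran from 250 bases before a start site to 50 bases from it onward. Windows were on hand for Srf (1 window), Egr4 (1 window) and Egr2 (5 windows), but not for Egr1 or Egr3. Of each gene, 200 bases are shown, 5′ to 3′ on the strand of the gene, from 220 to 21 bases before the start site. Capitals mark matches to the CArG box, the CRE core (TGACG, or CGTCA when read on the other strand), an ETS core (CCGGAA) or an EGR site (GCGTGGGCG or GCGGGGGCG). Srf at chr17:46556183-46556382 is shown as the gene with a pair of CArG boxes, Egr2 at chr10:67537649-67537848 as an Egr gene with a CArG box between CRE cores, and Egr4 at chr6:85513610-85513809 as one with CRE cores and no exact CArG box.
Srf: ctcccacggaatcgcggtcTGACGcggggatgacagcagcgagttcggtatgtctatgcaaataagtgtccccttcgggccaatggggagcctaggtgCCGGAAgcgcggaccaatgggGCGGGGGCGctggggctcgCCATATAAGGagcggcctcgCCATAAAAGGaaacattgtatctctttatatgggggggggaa
Egr2: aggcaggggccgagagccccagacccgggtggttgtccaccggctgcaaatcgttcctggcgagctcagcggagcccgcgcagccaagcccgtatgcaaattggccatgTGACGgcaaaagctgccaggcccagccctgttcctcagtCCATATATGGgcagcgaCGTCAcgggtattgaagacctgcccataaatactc
Egr4: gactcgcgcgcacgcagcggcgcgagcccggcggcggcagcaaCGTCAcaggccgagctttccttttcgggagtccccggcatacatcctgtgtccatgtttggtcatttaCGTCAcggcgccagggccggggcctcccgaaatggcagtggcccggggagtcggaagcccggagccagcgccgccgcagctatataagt

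In the Srf window, CArG boxes began 82 and 62 bases before the start site, an EGR site of the form GCGGGGGCG 101 bases, and an ETS core 122 bases before it, with a CRE core farther upstream. The promoter of the SRF gene thus holds letters matching both its own binding site and that of the Egr proteins. The Egr2 window that starts at position 67537869, the first base of the leading GENCODE transcript, held 1 CArG box at 72 bases and CRE cores at 111 and 55 bases before the start. Of the other Egr2 windows, those starting at 67537870 and 67537930 overlap this one and hold the same CArG box, the window at 67537566 held another CArG box with 3 ETS cores, 2 of which overlap, and the window at 67535499 held no match. The Egr4 window held CRE cores at 177 and 109 bases and no exact match to the CArG box, the ETS core or the EGR site.

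On both strands, a CArG box was found in 1.63% of all 32851 RefSeq promoter windows of this length, an EGR site in 3.47%, an ETS core in 14.9% and a CRE core in 20.8%. The full CRE (TGACGTCA), which contains the CRE core, was in 1.79% of all windows, and the AP-1 site (TGANTCA) in 7.81%, and neither was in a window of these 3 genes. A TATA box (TATAAA, in 13.6% of all windows) was matched once, on the other strand of the Srf window. A match is a match of letters only, and a missing match says nothing of sites outside these windows or of near matches.

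**Figure D1:**
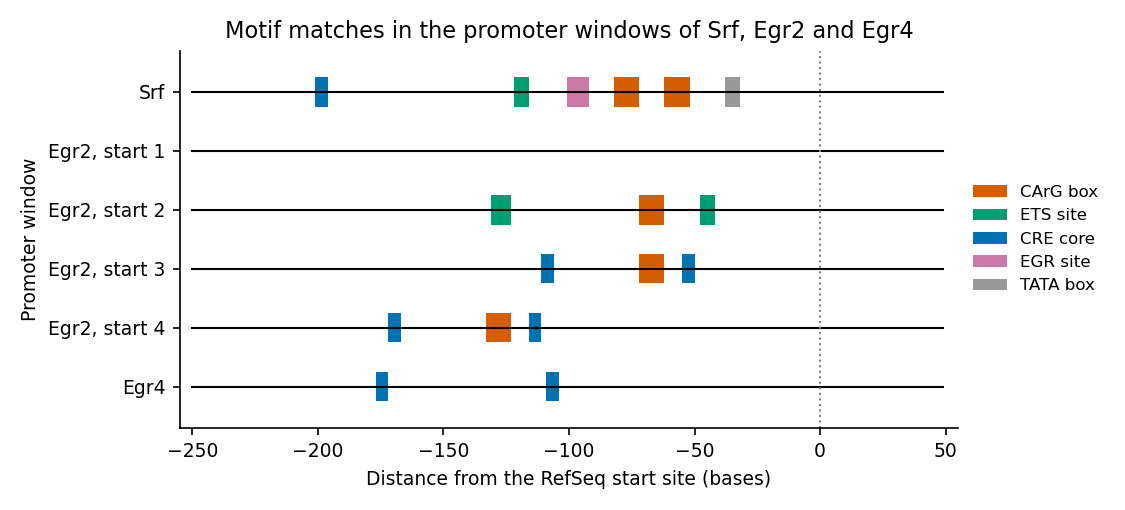
Motif matches in the RefSeq promoter windows of Srf, Egr2 and Egr4, as boxes along the distance in bases from the start site (dotted line). CArG boxes stand 82 and 62 bases before the start of Srf and 72 bases before 2 of the start sites of Egr2, and Egr4 has CRE cores alone. The Egr2 windows at 67537869 and 67537870 differ by 1 base and are drawn as one.

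The 5 genes lie on 5 different chromosomes and are short. In GENCODE M21 on GRCm38, the build that the study aligned to, Egr1 (ENSMUSG00000038418.7) lies on chromosome 18 from 34859823 to 34864984 on the plus strand. Egr2 (ENSMUSG00000037868.15) lies on chromosome 10 from 67535475 to 67542188 on the plus strand, and Egr3 (ENSMUSG00000033730.4) on chromosome 14 from 70077203 to 70082614, also on the plus strand. Egr4 (ENSMUSG00000071341.4) lies on chromosome 6 from 85511121 to 85513589 and Srf (ENSMUSG00000015605.6) on chromosome 17 from 46548329 to 46556175, both on the minus strand. The first listed transcript has 2 exons for Egr1, Egr2 and Egr4, 3 exons for Egr3 and 7 exons for Srf. No other annotated gene overlaps an Egr gene. Srf lies within the span of the antisense long noncoding RNA Gm26904 and holds the microRNA gene Mir6976, and whether the counting used strand is not given in the sources used here, so fragments of Srf and Gm26904 may not have been told apart.

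Egr1 encodes the founding member of the family, a broadly induced activator, and was the most abundant of the 5 genes in every library. In tau+/+ it went from 51.0 FPKM after vehicle to 274 FPKM after PTZ, and in tau-/- from 76.1 to 74.9 FPKM. The tau+/+ PTZ library stood 3.60-fold above the next highest, while the pair of tau-/- libraries lay next to each other, between tau+/+ vehicle and tau+/+ PTZ. The tau+/+ rise was 5.36-fold, and tau-/- PTZ was 0.985 times tau-/- vehicle.

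Egr3 encodes a factor needed for muscle spindle development and induced by synaptic activity, and it was second to Egr1 in every library. Vehicle and PTZ values were 35.2 and 128 FPKM in tau+/+ and 51.8 and 44.4 FPKM in tau-/-. Its tau+/+ rise of 3.64-fold was the smallest of the Egr genes. In tau-/-, the PTZ library was 0.857 times the vehicle library.

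Egr4 encodes the most divergent member of the family, which lacks the domain that binds Nab corepressors. The tau+/+ level was 9.45 FPKM after vehicle and 102 FPKM after PTZ, and the tau-/- level was 22.3 FPKM after vehicle and 17.0 FPKM after PTZ. Among the 5 genes it had the largest difference between the vehicle libraries (2.36-fold) and the lowest tau-/- PTZ value against tau-/- vehicle (0.761-fold). The tau+/+ rise was 10.8-fold.

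Egr2, also known as Krox20 and needed for Schwann cell myelination and hindbrain patterning, was the least abundant of the 5 genes in every library. Its level was 0.913 FPKM after vehicle and 14.0 FPKM after PTZ in tau+/+, against 1.72 and 1.88 FPKM in tau-/-. The tau+/+ rise of 15.4-fold was the largest of the 5 genes, from a level below 1 FPKM, and it depended on the pseudocount: the log2 response of 3.94 became 2.98 when 1 FPKM was added to each value, below the 3.31 of Egr4, so that Egr4 then had the largest rise. Egr2 alone was higher in tau-/- PTZ than in tau-/- vehicle, by 1.09-fold.

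Srf measured 15.1 FPKM after vehicle and 23.4 FPKM after PTZ in tau+/+, and 18.5 FPKM after vehicle and 15.7 FPKM after PTZ in tau-/-. All 4 values lay within 1.55-fold of each other, and the gene sits just inside the threshold of the list: the tau+/+ response had a log2 of 0.63, rank 160 of 230 from the highest. The listed genes next to it in that order are Clk4 and Lbp, with log2 responses of 0.64 and 0.63. The regulator thus moved far less than the Egr genes in the same libraries, whose log2 responses in tau+/+ ranged from 1.87 to 3.94 and ranked 6 (Egr2), 9 (Egr4), 20 (Egr1) and 39 (Egr3).

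**Figure D2:**
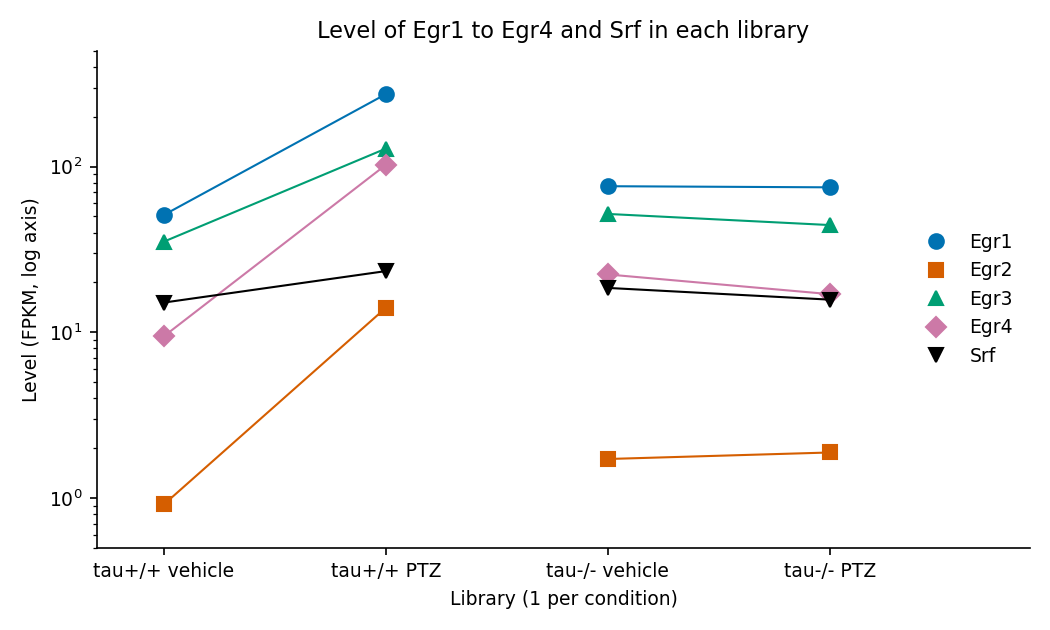
Level in FPKM on a log axis of Egr1 to Egr4 and Srf in each of the 4 libraries (1 point per library, no error bars because there are no replicates), with lines joining vehicle and PTZ of the same genotype. The lines climb in tau+/+, least for Srf (15.1 to 23.4 FPKM). In tau-/- they run nearly level or down, most for Egr4 (22.3 to 17.0 FPKM), apart from Egr2 (1.72 to 1.88 FPKM).

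The order of levels was the same in both tau-/- libraries: Egr1, Egr3, Egr4, Srf, Egr2. Egr4 and Srf were neighbors there, with Egr4 1.21-fold above Srf after vehicle and 1.08-fold above it after PTZ. In tau+/+ vehicle Srf stood above Egr4 by 1.60-fold, and in tau+/+ PTZ Egr4 had passed Srf by 4.38-fold and lay 1.25-fold below Egr3. Without replicates no spread is known, so none of these neighbors can be said to differ beyond it.

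The makeup of the summed Egr level shifted with PTZ in tau+/+ and less in tau-/-. The sum of Egr1 to Egr4 was 96.6 FPKM after vehicle and 518 FPKM after PTZ in tau+/+, with 152 and 138 FPKM for tau-/-. Egr1 made up 52.8% of it in both tau+/+ libraries, 50.1% in tau-/- vehicle and 54.2% in tau-/- PTZ, so its share hardly moved while the sum rose 5.37-fold in tau+/+. The share of Egr3 went from 36.5% to 24.8% with PTZ in tau+/+ and from 34.1% to 32.1% in tau-/-. The share of Egr4 went from 9.78% to 19.7% in tau+/+ and from 14.7% to 12.3% in tau-/-, opposite directions in the 2 genotypes. Egr2 stayed the smallest part, with 0.945% and 2.71% in tau+/+ and 1.13% and 1.36% in tau-/-.

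**Figure D3:**
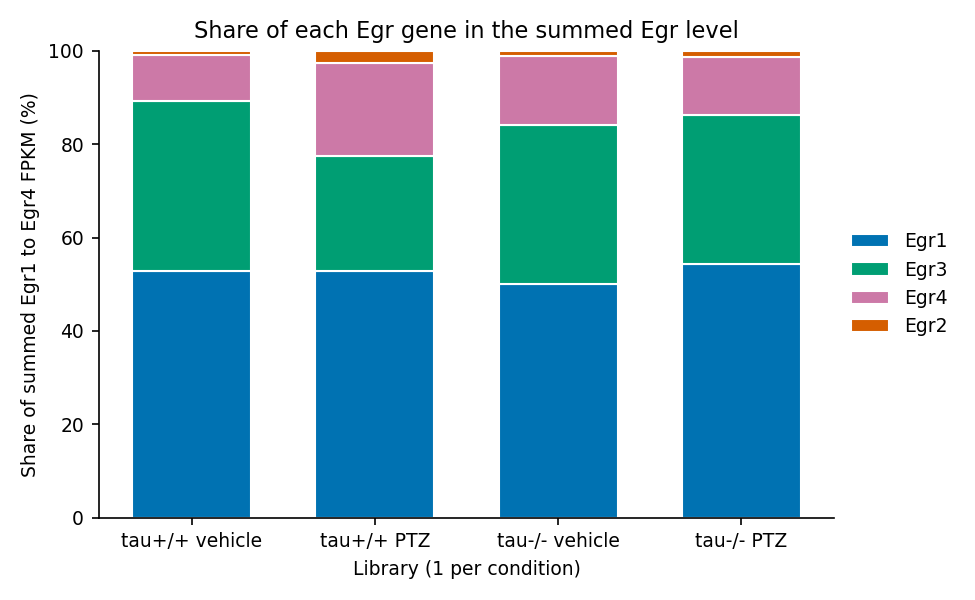
Share in percent of Egr1, Egr3, Egr4 and Egr2 in the summed FPKM of the 4 Egr genes, 1 bar per library. Egr4 takes 19.7% in tau+/+ PTZ against 9.78% in tau+/+ vehicle, at the cost of Egr3, while Egr1 holds between 50.1% and 54.2% in the 4 libraries.

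Whether PTZ changed these genes in tau-/- mice was asked against tau-/- vehicle, as the study defines it. The median log2 response of the 5 genes was -0.22, with a range from -0.39 (Egr4) to 0.13 (Egr2), beside a median of -0.10 over all 230 listed genes. None of the 5 went past 1.5-fold in either direction, where 8.7% of the listed genes went over 1.5-fold higher and 16.5% over 1.5-fold lower. In tau+/+, all 5 went over 1.5-fold higher, where the background is 76.1% and membership of the list required a change of that size. The median tau+/+ log2 response was 2.42 for the 5 genes and 0.80 for all listed genes.

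For Egr1, Egr3, Egr4 and Srf the direction in tau-/- turned with the vehicle library used as the baseline, while Egr2 was above both vehicle libraries. For Egr1, at -0.02, the direction also turned, to 0.07, when ratios were centred on the median of the other listed genes. Against tau+/+ vehicle, tau-/- PTZ had log2 ratios of 0.55 for Egr1, 1.04 for Egr2, 0.33 for Egr3, 0.85 for Egr4 and 0.059 for Srf. The median of these log2 ratios was 0.55 for the 5 genes and 0.03 for all listed genes. Egr2 (2.06-fold) and Egr4 (1.80-fold) were above baseline by over 1.5-fold, where 14.8% of the listed genes were. Expressed as a part of the tau+/+ rise in FPKM, tau-/- PTZ reached 10.7% of it for Egr1, 7.37% for Egr2, 9.81% for Egr3, 8.11% for Egr4 and 7.56% for Srf. The tau-/- vehicle library already stood at 11.3% of that rise for Egr1, 6.13% for Egr2, 17.8% for Egr3, 13.9% for Egr4 and 41.1% for Srf. These comparisons share tau+/+ vehicle, and with 1 such library a low value there and a high baseline in tau-/- cannot be told apart.

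Without PTZ, the vehicle libraries already differed. In the tau-/- library all 5 genes were above the tau+/+ library, by 1.49-fold for Egr1, 1.88-fold for Egr2, 1.47-fold for Egr3, 2.36-fold for Egr4 and 1.23-fold for Srf. A difference of any size in this direction was seen in 58.7% of the listed genes. Egr2 and Egr4 went past 1.5-fold, which 13.9% of the listed genes did, and among the 230 genes Egr4 had the 4th and Egr2 the 11th highest ratio. With 1 FPKM added to each value, the log2 difference of Egr2 went from 0.91 to 0.51, under the 0.58 that 1.5-fold equals, and only Egr4 of the 5 genes stayed past it. The median log2 difference was 0.58 for the 5 genes and 0.11 for all listed genes. The responses that the list was chosen on share both vehicle libraries with this comparison. A low tau+/+ vehicle or a high tau-/- vehicle value favors a place on the list, so the ratios and ranks are a description.

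After PTZ, the median log2 difference of the tau-/- library from the tau+/+ library was -1.87 for the 5 genes and -0.78 for all listed genes. The tau-/- PTZ value was 27.4% of the tau+/+ PTZ value for Egr1, 13.4% for Egr2, 34.6% for Egr3, 16.6% for Egr4 and 67.2% for Srf. The 4 Egr genes were over 1.5-fold lower, as were 60.4% of the listed genes, and Srf, at 1.49-fold lower, was not. The list was chosen on the responses within each genotype, which share both PTZ libraries with this comparison, so the counts are a description.

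**Figure D4:**
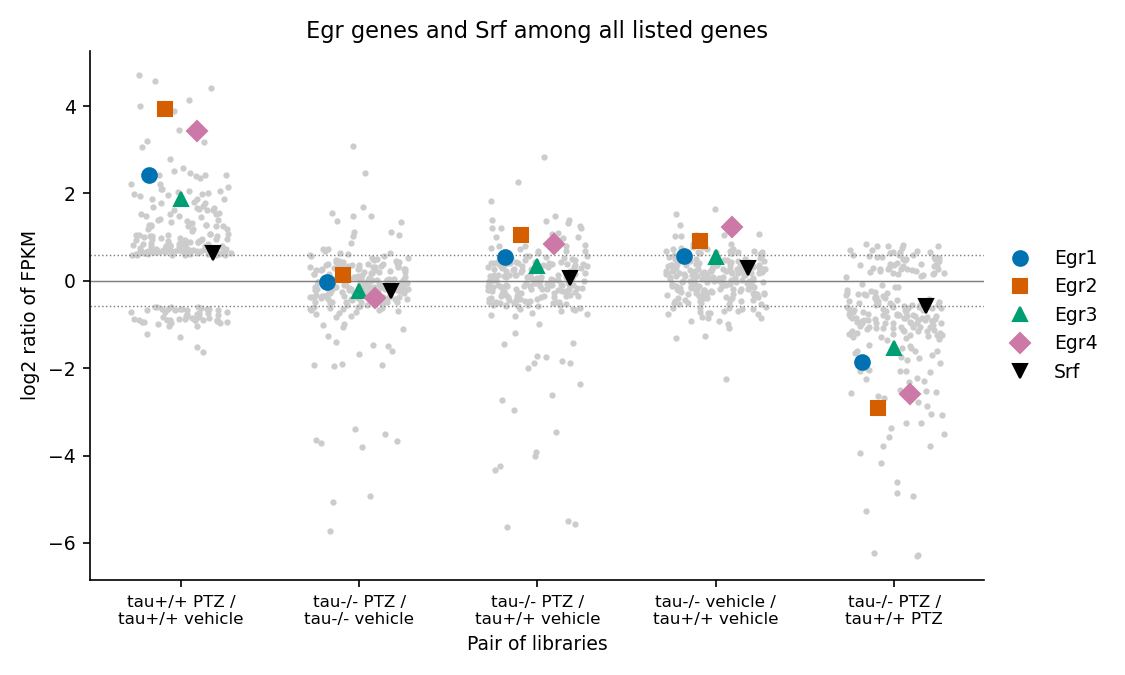
The log2 ratio of FPKM for 5 pairs of libraries, with all listed genes in gray and Egr1 to Egr4 and Srf as colored symbols; dotted lines mark 1.5-fold, and Defb11, listed at 0 in tau-/- PTZ, is not drawn in pairs that use that library. The Egr symbols lie between 1.87 and 3.94 for tau+/+ PTZ over tau+/+ vehicle, and all 5 lie between the dotted lines for tau-/- PTZ over tau-/- vehicle.

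The libraries of Egr1, Egr3, Egr4 and Srf fell in one order: tau+/+ vehicle lowest, then tau-/- PTZ, then tau-/- vehicle, with tau+/+ PTZ highest. Egr2 had the same lowest and highest library with the middle pair exchanged. This order was found in 50 of the 230 listed genes (21.7%), and both tau-/- libraries lay between the tau+/+ libraries in 43% of them. Of the AP-1 genes, which encode the Fos and Jun type leucine zipper factors, Fos, Fosb, Fosl2, Jun, Junb, Maff and Atf3 were listed, and 0 of these 7 had this order. Of the Nr4a genes, which encode orphan nuclear receptors, all 3 were listed and 0 of 3 had it. With so few genes and a share of 21.7% over the list, these counts set neither family apart.

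In both families every listed gene was higher in tau-/- PTZ than in tau-/- vehicle, where 41.3% of all listed genes were. The median tau-/- log2 response was 0.60 for the AP-1 genes, with a range from 0.20 (Jun) to 1.48 (Atf3). Of these 7 genes, 4 went over 1.5-fold higher, where 8.7% of all listed genes did. With 1 FPKM added to each value, the AP-1 median was 0.52. That is under the 0.58 that 1.5-fold equals, so fewer than 4 of the 7 then went past it. For Nr4a1, Nr4a2 and Nr4a3 the tau-/- log2 responses were 0.35, 0.03 and 0.10, and none went past 1.5-fold, values that lie on both sides of the 0.13 of Egr2. Against tau+/+ vehicle, tau-/- PTZ was over 1.5-fold higher for 5 of the 7 AP-1 genes and 2 of the 3 Nr4a genes. The same held for 2 of the 5 genes described here and for 14.8% of all listed genes. Median log2 ratios were 1.22 for AP-1, 0.82 for Nr4a, 0.55 for the 5 genes and 0.03 over all listed genes. Fos, whose tau+/+ log2 response of 4.13 was near that of Egr2 (3.94), had 1.01 in tau-/-, against 0.13 for Egr2. Junb and Nr4a1, with tau+/+ values of 3.05 and 3.45, had 0.37 and 0.35, against -0.39 for Egr4 at 3.44. The families were set side by side without a test, since none is possible with 1 library per condition.

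**Figure D5:**
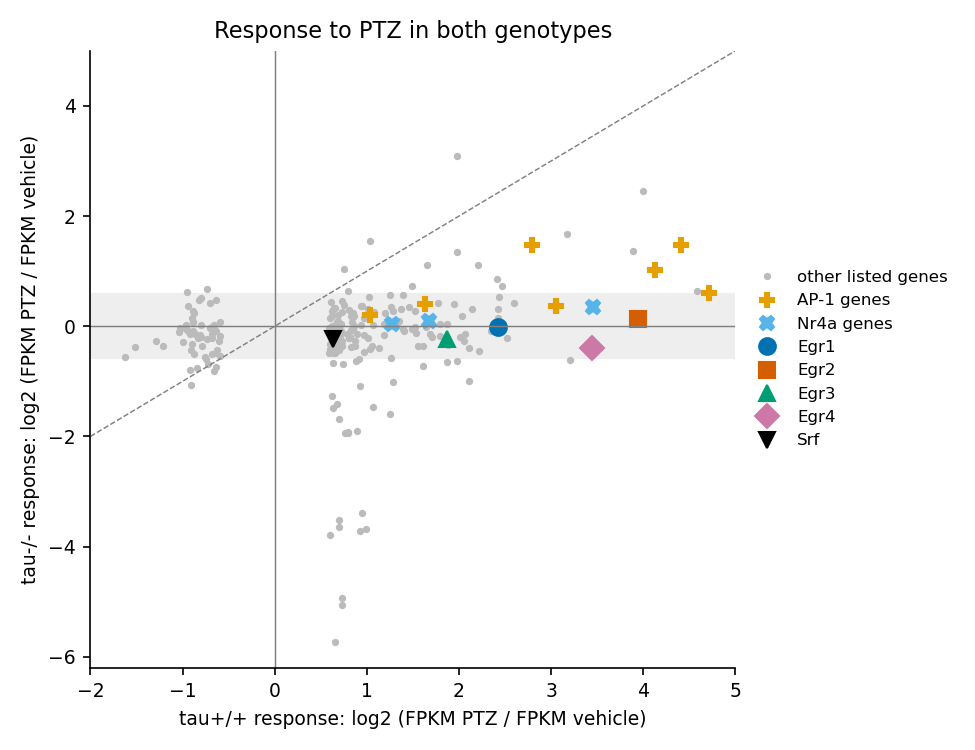
Log2 response to PTZ in tau-/- (vertical) against that in tau+/+ (horizontal), each over vehicle of its own genotype, for the listed genes; the gray band marks 1.5-fold in tau-/-, the dashed line equal responses, and Defb11, listed at 0 in tau-/- PTZ, is not drawn. The Egr genes and Srf lie in the band, between -0.39 (Egr4) and 0.13 (Egr2). The 7 AP-1 genes lie above 0, between 0.20 and 1.48.

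Genes tied to Srf and the Egr proteins by function were looked up by names written down with these data known, so how many of them were listed is no result about a group. None of the 8 names written down for Srf cofactors (ternary complex factors and myocardin-related factors) and neither Nab1 nor Nab2, the corepressors of Egr1 to Egr3, was listed, and they are not analysed here. Of 16 known Srf targets outside the Egr family, 10 were listed: Fos, Fosb, Junb, Ier2, Arc, Nr4a1, Cyr61, Mcl1, Zfp36 and Dusp1. All 10 were over 1.5-fold higher with PTZ in tau+/+, where 76.1% of all listed genes were and a change of that size was required. In tau-/-, 5 of the 10 were over 1.5-fold higher, 1 was lower and 4 were within 1.5-fold, with a median log2 response of 0.51. Over all listed genes the shares were 8.7% higher and 16.5% lower. Cyr61, a matricellular gene and a target of the actin-regulated branch, climbed from 2.63 to 14.5 FPKM within tau-/-, a log2 response of 2.46, in the same library in which Srf itself was at 0.850 times vehicle. Mcl1, an anti-apoptotic gene of the ternary complex factor branch, was nearest to Srf in size of response, with a log2 of 0.66 in tau+/+ and 0.04 in tau-/-.

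Of 10 known Egr targets, Arc and Thbs1 were listed. Arc, which encodes a synaptic protein that drives AMPA receptor endocytosis, had a tau+/+ log2 response of 2.11 and a tau-/- one of -0.999, and its vehicle level was higher in tau-/-, with a log2 difference of 0.78. Thbs1, which encodes the matrix protein thrombospondin 1, stayed at or under 1.71 FPKM in all 4 libraries, with log2 responses of 1.56 and -0.36. Both targets were thus, like 4 of the 5 genes described here, below tau-/- vehicle after PTZ, where 58.7% of all listed genes were.

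Of 9 genes that restrain ERK signaling and are induced by it, 6 were listed. Dusp1, a phosphatase of several MAP kinases, had tau-/- log2 responses of 1.11, Dusp6 of 0.28 and the Sprouty gene Spry2 of 0.45, all above vehicle. Dusp4, Dusp5 and Errfi1, an inhibitor of the EGF receptor, were below it, at -0.48, -0.28 and -0.09, and these 3 had the library order of Egr1. Over all listed genes, 58.7% were below tau-/- vehicle and 21.7% had that order, so 3 of 6 sets this group apart in neither. The tau+/+ log2 responses of the 6 genes ranged from 0.74 (Spry2) to 2.35 (Errfi1). Among Krüppel-like zinc finger genes, Klf2 and Klf4 had tau+/+ log2 responses of 0.93 and 1.66 and tau-/- responses of 0.36 and 1.12. The values of Klf5 were -0.89 (tau+/+) and 0.28 (tau-/-).

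Likeness of profile was measured as the Euclidean distance between log2 FPKM over the 4 libraries, each gene centred on its own mean. For each of the 5 genes, the 3 nearest listed genes outside these 5 are named first. Egr3 was nearest to Tiparp (0.12), Rasl11a (0.17) and Nfil3 (0.18), and Egr1 to Gal (0.24), Errfi1 (0.28) and Tiparp (0.33). Egr2 was nearest to Nr4a1 (0.62), Fos (0.65) and Junb (0.66), and Egr4 to Arl4d (0.30), Nr4a1 (0.55) and Junb (0.65). Arl4d, which encodes a small GTPase of the ADP-ribosylation factor family, had 5.12 and 47.2 FPKM after vehicle and PTZ in tau+/+, with 10.5 and 6.85 FPKM for tau-/-. Srf lay within 0.06 of Med7, Shkbp1 and Ppp1r14a. Among the 5 genes, Egr1 and Egr3 were closest (0.45), followed by Egr2 and Egr4 (0.61). Egr4 was thus nearer to Egr2 than Nr4a1 was, and Egr2 nearer to Egr4 than Junb was. Srf was nearest to Egr3 (0.94) and farthest from Egr2 (2.51). The distance rests on 4 values per gene, and for Egr1, Egr2 and Srf only 1 of the 3 nearest genes was kept when 1 FPKM was added.

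The libraries also differed in transcripts of other cells. Every marker given here is one of the 230 genes, of which a change of over 1.5-fold in tau+/+ was required, so the values are a description. In tau-/- PTZ, 4 of the 5 genes were below tau-/- vehicle, as were 58.7% of all listed genes. All 13 listed markers of choroid plexus epithelium were over 1.5-fold below it, against 16.5% of all listed genes. Their summed level was 1579 FPKM after vehicle and 2626 FPKM after PTZ in tau+/+, and 1162 and 39.6 FPKM in tau-/-, most of it from Ttr, and in tau-/- PTZ Slc4a5 was at 0.0466 FPKM and F5 at 0.223 FPKM, with none of the 13 at 0. The 2 listed neuron markers, Nptx2 and Bdnf, summed to 27.3, 50.9, 28.7 and 25.3 FPKM in the same order, and both are themselves induced by activity. The 5 listed meninges markers summed to 15.9, 26.2, 16.7 and 11.0 FPKM, with most of the tau-/- step from Pcolce (7.78 to 2.94 FPKM). Of these 5, 2 were over 1.5-fold lower in tau-/- PTZ than in tau-/- vehicle, while Mfap2 went from 2.63 to 3.43 FPKM. Summed levels were 1.95, 4.25, 3.06 and 2.89 FPKM for the 2 microglia markers, and the endothelial marker Apold1, itself an early gene, had 0.633, 5.70, 0.940 and 3.01 FPKM. Of the 5 astrocyte, 4 oligodendrocyte and 6 red blood cell markers looked up, none was among the 230 genes, so these cells are not analysed here. The part of tissue makeup in the Egr and Srf values was not tested, and in such bulk RNA fewer cells of a type and less RNA per cell cannot be told apart.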

How the data were processed

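RNA of mouse brain was sequenced as read pairs, 1 library per condition, and the authors' deposited table gives FPKM for 230 genes. By the methods of the study, the authors aligned the reads to GRCm38/mm10 with TopHat2 2.03 and Bowtie2 2.0.0.6. They tested differential expression with Cuffdiff 2.01, and CASAVA 1.7 is also named in the submitters' processing notes. The annotation is not given in the sources used here. The table also holds the authors' own fold changes and p-values for 2 comparisons, which were not used.

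From FPKM, log2 ratios were computed without a pseudocount or a filter, and genes were counted past 1.5-fold, the threshold of the study. Defb11, the only gene listed at 0 in a library, was counted as lower in ratios over which tau-/- PTZ stands. No test was made, since each condition has 1 library, and of depth the study states only a minimum of aligned read pairs that every sample reached. The members, gene lists, marker lists and motifs were chosen with earlier results of these data known. Named genes are the 5 genes, the 3 nearest profiles of each outside the 5, listed members of the gene lists and the neighbors in the order of tau+/+ responses. Alternatives were pseudocounts of 0.1 and 1 FPKM, tau+/+ vehicle as baseline, centring, filters on low values, the list without choroid plexus and meninges genes, and a threshold of 2-fold. Coordinates came from GENCODE M21, where all 5 genes were found, and promoters from RefSeq (3 of the 5 genes matched). The functions were tested on simulated data. The scripts ran in Python 3.11.15 with numpy 2.4.6, pandas 2.3.3 and matplotlib 3.10.9.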

Additional observations from a re-analysis of the deposited data

Results flagged for a closer look

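Egr1, Egr3, Egr4 and Srf moved in opposite directions with PTZ in the 2 genotypes, up in the tau+/+ pair of libraries and down in the tau-/- pair. Of all listed genes, 58.7% were lower in tau-/- PTZ than in tau-/- vehicle, and the list was chosen on both responses. The tau-/- log2 response minus the tau+/+ log2 response was -2.44 for Egr1, -2.09 for Egr3, -3.83 for Egr4 and -0.87 for Srf. The median of this difference over all listed genes was -0.98. The difference was not tested, since each condition has 1 library, and the downward step in tau-/- was within 1.5-fold for each of the 4 genes, as small as 0.985-fold for Egr1. Against tau+/+ vehicle the tau-/- PTZ value was above baseline for all 4, so the opposite direction needs tau-/- vehicle as the baseline, and centring on the other listed genes moved Egr1 to 0.07 in tau-/-.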

How the results depend on the processing

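No paired analysis was possible because each condition has 1 library and the labels give no replicate numbers, and for the same reason leaving out a replicate was not done. Of 156 recomputed values, 108 differed by at most 0.1 (log2) or, for counts, by at most 1.5 times, 48 moved and 0 reversed a value past 1.5-fold. The sign of the tau-/- response of Egr1, Egr3, Egr4 and Srf, none of them past 1.5-fold, turned with the baseline, and that of Egr1 also with centring (0.07), under which the vehicle differences of the 5 genes stayed above 0.

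With tau+/+ vehicle as baseline, the tau-/- log2 responses became 0.55 (Egr1), 1.04 (Egr2), 0.33 (Egr3), 0.85 (Egr4) and 0.059 (Srf), and the tau-/- minus tau+/+ differences -1.87, -2.90, -1.53, -2.59 and -0.57. The shared baseline cancels in this difference, which equals the log2 ratio of tau-/- PTZ over tau+/+ PTZ and is no separate result. The medians of the tau-/- response became 0.55 for the 5 genes, 1.22 for AP-1 and 0.82 for Nr4a, and those of the difference -1.87, -2.25 and -0.98. A pseudocount of 0.1 FPKM gave 3.80 for the tau+/+ response of Egr2 and -3.68 for its difference. A pseudocount of 1 FPKM gave Egr2 a tau+/+ response of 2.98, a vehicle difference of 0.51 (no longer past 1.5-fold), a PTZ difference of -2.38 and a response difference of -2.89, and Egr4 a tau+/+ response of 3.31 and a response difference of -3.68. It gave AP-1 medians of 2.82 (tau+/+ response), 0.10 (vehicle difference) and -2.24 (response difference), and medians over all listed genes of 0.63 (tau+/+ response), -0.60 (PTZ difference) and -0.79 (response difference). It left 1 of the 3 nearest profiles of Egr1, 1 of Egr2 and 1 of Srf.

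Among listed genes with a mean of at least 5 FPKM, the medians were 0.97 (tau+/+ response), 0.23 (vehicle difference), -0.94 (PTZ difference) and -1.19 (response difference). At a threshold of 2-fold, 1 of the 5 genes was higher in tau-/- vehicle and 1 in tau-/- PTZ against tau+/+ vehicle. Of the listed genes, 85 were then higher and 6 lower in the tau+/+ response, 12 higher and 23 lower in the tau-/- response, 10 higher and 4 lower in tau-/- vehicle, 0 higher and 85 lower in tau-/- PTZ against tau+/+ PTZ, and 18 higher in tau-/- PTZ against tau+/+ vehicle. The study states a minimum of aligned read pairs that every sample reached, but not the total of each library, so no counting interval was computed for the low Egr2 values.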
